A study of Homo sapiens with 12 samples.

Results

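The RNA exosome is the cell's main 3′-to-5′ RNA-degrading machine, and its 10 core subunit genes, EXOSC1 to EXOSC10, were followed across 12 libraries of a human B-cell precursor leukaemia line. The members were the rows of the deposited normalized table that carry these names, 10 of 26231 genes, each joined to the raw counts by its gene ID. All 10 were among the 11968 genes that passed the filter on low counts. EXOSC5 was chosen by its lower level in treated than in untreated SH2 cells in these same libraries, so its values in that comparison are given as a description without a test.

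All libraries came from 697 (EU3) cells sorted for high aldehyde dehydrogenase activity (ALDH+), an enzyme activity used to enrich stem-like cells. Treated SH2 cells carried a hairpin that targets IGF2BP1, whose protein binds mRNAs in the embryo and in many cancers, and had received doxycycline, which switches on the hairpin and a green fluorescent reporter (sets 1 to 4, n = 4). Untreated SH2 cells carried the same construct without doxycycline (sets 1 to 4, n = 4). Treated and untreated control cells were the doxycycline controls (sets 2 and 4, n = 2 each). The labels do not say whether these hold the scrambled shRNA, and they give no doxycycline dose or time. After doxycycline, cells were sorted again for the reporter, a step that untreated cells did not share. Each set was a separate sort and a separate treatment, per the design text.

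The exosome core is a ring of RNase PH-like proteins, EXOSC4 to EXOSC9, which has lost its catalytic activity in human cells, topped by a cap of RNA-binding proteins, EXOSC1 to EXOSC3. The ring is built from the pairs EXOSC4 with EXOSC9, EXOSC5 with EXOSC8 and EXOSC6 with EXOSC7, so that 1 copy of each subunit enters each complex. Cutting is done by bound nucleases: EXOSC10 in the nucleus and nucleolus, and DIS3. Known substrates are the trailing ends of ribosomal RNA precursors, short-lived promoter transcripts and mRNAs marked for decay.

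The promoters of EXOSC5 and of its ring partner EXOSC8 are shown because these subunits had the lowest and the highest log2 fold change of the 10 with doxycycline in SH2 cells. RefSeq promoter windows on GRCh38.p14 (250 bases before to 50 after the start) were matched for 8 of the 10 subunits, all but EXOSC1 and EXOSC4. Capitals mark CACGTG, the palindromic E-box that MYC with MAX, and USF proteins, can bind. The stretches below run from 250 bases before to 20 bases after the start.
EXOSC5, chr19:41397340-41397609, minus strand: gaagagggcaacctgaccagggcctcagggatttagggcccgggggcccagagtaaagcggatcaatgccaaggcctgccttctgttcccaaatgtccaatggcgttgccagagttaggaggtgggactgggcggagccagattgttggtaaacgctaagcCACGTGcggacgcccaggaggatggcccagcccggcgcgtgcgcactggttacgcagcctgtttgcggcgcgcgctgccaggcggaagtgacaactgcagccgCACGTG
EXOSC8, chr13:37000536-37000805, plus strand: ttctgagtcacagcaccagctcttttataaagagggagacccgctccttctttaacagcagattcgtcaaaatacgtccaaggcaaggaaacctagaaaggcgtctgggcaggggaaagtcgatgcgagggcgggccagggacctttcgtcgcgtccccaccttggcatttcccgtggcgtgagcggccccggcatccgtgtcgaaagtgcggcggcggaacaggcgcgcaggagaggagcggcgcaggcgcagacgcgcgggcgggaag
The EXOSC5 window held 2 such E-boxes, whose first bases lay at -89 and 15 from the start. None was found in the windows of the other 7 matched subunits. Of all 35116 promoter windows, 7.26% held at least 1 and 0.664% held 2 or more. In all 4 strings were searched on both strands of the 9 subunit windows (EXOSC3 has a pair), and they were picked after expression values had been seen. An exact core string of NRF1 sites and the exact string CCGGAAG, a core of ETS sites, were found in 0 of the 9 windows, against 1.24% and 10.3% of all windows. Only exact letters were matched, so the counts do not show that these windows, that of EXOSC5 included, lack NRF1 or ETS sites. A core string of YY1 sites was found in 1, that of EXOSC8, with its first base at 18, against 0.849% of all windows. The matches did not overlap each other. A match is a string of letters and was not tested as a binding site.

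The libraries held 2210291 to 3370952 reads in genes. QuantSeq libraries give reads at the transcript's 3′ end, so levels are CPM (read counts relative to library size, scaled by TMM) and were not divided by gene length. All 9 precursor B markers were detected in each group, with a summed level of 1161 to 3113 CPM per library. Markers of T cells reached at most 86.9 CPM in SH2 and 354 CPM in control libraries, and CD34 had 1 count in all. ALDH1A1 ranged from 1.30 to 22.1 CPM, and ALDH1A2 from 0 to 33.2 CPM with a median of 0. The treated SH2 library of set 4 stood apart: Pearson's r of its log2 CPM with each of the remaining SH2 libraries was 0.832 to 0.908, and r among those libraries was 0.893 to 0.967, with a median of 0.942.

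IGF2BP1, the targeted gene, stood at 15.6 ± 7.68 CPM in treated SH2 cells and at 31.1 ± 7.23 CPM in untreated SH2 cells (SD, n = 4 each), and was lower with doxycycline in 4 of 4 sets. In control cells it was near the limit of detection, at 0.672 ± 0.410 CPM treated and 0.712 ± 1.01 CPM untreated (SD, n = 2 each). The control cells thus differed from SH2 cells in the target itself. In such bulk samples, fewer cells of a kind and less RNA per cell cannot be told apart.

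EXOSC5 mRNA was 3.01-fold less abundant in treated than in untreated SH2 cells, while in control cells, with and without doxycycline, it lay near the level of untreated SH2 cells. EXOSC5 (ENSG00000077348, GRCh38 chromosome 19, 41386374 to 41397479, minus strand) encodes the ring subunit known in yeast as Rrp46. In treated SH2 cells it stood at 26.0, 13.3, 14.2 and 15.5 CPM in sets 1 to 4, from 62, 35, 43 and 46 reads. In untreated SH2 cells it stood at 49.6, 55.5, 41.8 and 60.3 CPM, from 121, 187, 129 and 200 reads. The highest treated library, that of set 1, lay below the lowest untreated library, that of set 3, so the groups did not overlap. Treated control cells had 52.2 and 68.4 CPM in sets 2 and 4, and untreated control cells 54.1 and 47.7 CPM. All 4 control libraries lay within or above the range of the untreated SH2 cells.

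The group means of EXOSC5 were 17.2 ± 5.90 CPM in treated and 51.8 ± 7.99 CPM in untreated SH2 cells (SD, n = 4 each). The fitted log2 fold change was -1.59 ± 0.26 (SE), and the differences within sets were -0.93, -2.06, -1.56 and -1.96. Of the 11968 genes, 89 had a lower fitted log2 fold change in this contrast. EXOSC5 was the only subunit whose treated SH2 libraries all lay below the untreated ones, which held for 2.03% of all genes. This contrast chose EXOSC5, so nothing is read from that count.

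**Figure D1:**
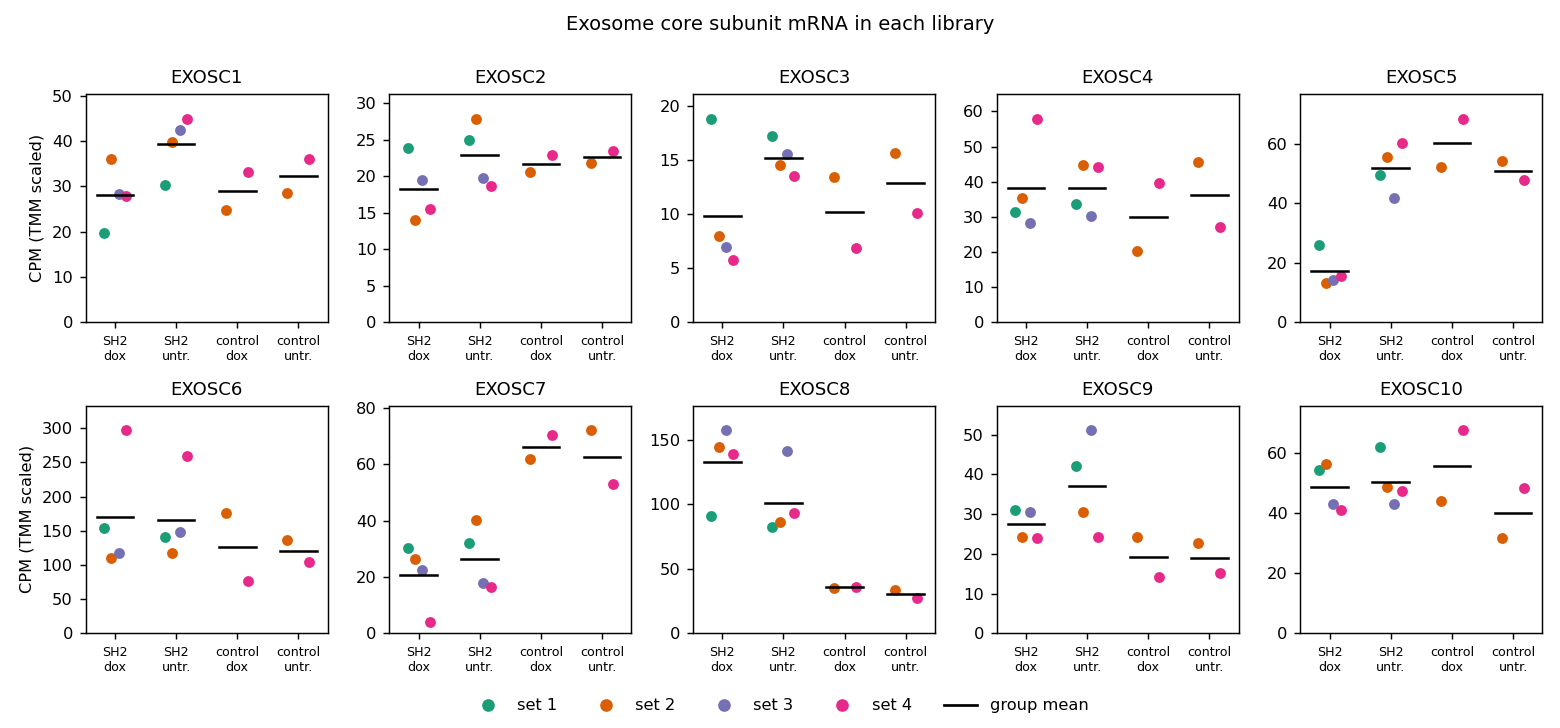
CPM of each subunit (y axis, its own linear scale from 0 per panel) in every library of the 4 groups (x axis), with points coloured by set and bars at the group means. EXOSC5 sits between 13.3 and 26.0 CPM in treated SH2 cells and above 41 CPM in all other libraries, EXOSC8 is high and EXOSC7 low in SH2 cells with and without doxycycline, and EXOSC6 is highest in both SH2 libraries of set 4.

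EXOSC8, which pairs with EXOSC5 in the ring (yeast Rrp43), was the member with the highest log2 fold change. Treated SH2 cells had 91.3, 144, 158 and 139 CPM of EXOSC8 in sets 1 to 4, and untreated SH2 cells had 82.8, 86.6, 142 and 93.2 CPM. It was higher with doxycycline in each of the 4 sets, by 0.14, 0.74, 0.16 and 0.58 on the log2 scale, but the groups overlapped, since the untreated library of set 3 stood above the treated one of set 4. Its fitted log2 fold change was 0.40 ± 0.24 (SE), or 0.62 without the untreated and 0.31 without the treated library of set 3. Treated control cells had 34.9 and 36.3 CPM and untreated control cells 33.7 and 27.5 CPM, so EXOSC8 was also slightly higher with doxycycline in both control sets.

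The other ring subunits showed no common direction with doxycycline in SH2 cells. EXOSC4 (yeast Rrp41), which touches the RNA path in the ring, had 38.3 ± 13.4 CPM treated and 38.1 ± 7.39 CPM untreated, a log2 fold change of 0.00 ± 0.31 (SE). EXOSC6 (yeast Mtr3), the subunit with most reads, had 170 ± 87.1 and 166 ± 62.8 CPM, a log2 fold change of 0.03 ± 0.37, and both of its SH2 libraries of set 4 were well above the rest, at 297 and 259 CPM. For these subunits the treated and untreated libraries lay intermingled. EXOSC7 (yeast Rrp42) had 30.2, 26.2, 22.4 and 4.04 CPM in treated and 32.0, 40.0, 17.8 and 16.3 CPM in untreated SH2 cells of sets 1 to 4. The 4.04 CPM, from 12 reads, came from the library that stood apart. EXOSC7 had a log2 fold change of -0.36 ± 0.46 with that library and -0.02 without it, and -0.09 without the untreated library of set 2 or -0.60 without the treated one of set 1. EXOSC9 (yeast Rrp45), a target of autoantibodies in scleroderma overlap disease, had 27.5 ± 3.88 and 37.0 ± 12.0 CPM, a log2 fold change of -0.43 ± 0.29 that was -0.21 without the untreated library of set 3.

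All 3 cap subunits had a negative log2 fold change in SH2 cells, each smaller than that of EXOSC5. EXOSC1 (yeast Csl4) had 19.7, 36.1, 28.3 and 28.0 CPM treated and 30.3, 39.7, 42.4 and 45.0 CPM untreated, a log2 fold change of -0.49 ± 0.25 (SE). EXOSC2 (yeast Rrp4) had 23.9, 14.0, 19.4 and 15.5 CPM treated and 25.0, 27.9, 19.8 and 18.7 CPM untreated, a log2 fold change of -0.33 ± 0.26, or -0.21 without the untreated library of set 2. Both were lower with doxycycline in every set, yet the groups overlapped. EXOSC3 (yeast Rrp40), mutated in a form of pontocerebellar hypoplasia, had 18.9, 7.97, 6.92 and 5.73 CPM treated and 17.2, 14.5, 15.5 and 13.6 CPM untreated. It was lower in sets 2 to 4 and slightly higher in set 1, with a log2 fold change of -0.63 ± 0.39. Without the treated library of set 1 that value was -1.14, and without the treated library of set 4 it was -0.44. EXOSC3 is the subunit with the fewest reads, 17 to 49 per library, and its pseudogenes EXOSC3P1 and EXOSC3P2 took 1 and 0 reads.

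EXOSC10 (yeast Rrp6), the nuclear nuclease, had a log2 fold change of -0.04 ± 0.24 in SH2 cells, at 48.7 ± 7.70 CPM treated and 50.2 ± 8.12 CPM untreated (SD, n = 4 each). Over the 9 subunits other than EXOSC5 the median log2 fold change was -0.33, with 6 negative and 3 positive, beside a median of 0.03 over all genes tested. Of the 9 subunits other than EXOSC5, 3 were lower in all 4 sets (EXOSC1, EXOSC2 and EXOSC9), beside 10.1% of all genes, and 1 was higher in all 4 (EXOSC8), beside 10.6%. EXOSC5 was lower in all 4 as well, in the libraries that chose it. In set 4, EXOSC7 at -2.01 lay slightly below EXOSC5. In sets 1 to 3 EXOSC5 had the lowest log2 difference of the 10.

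**Figure D2:**
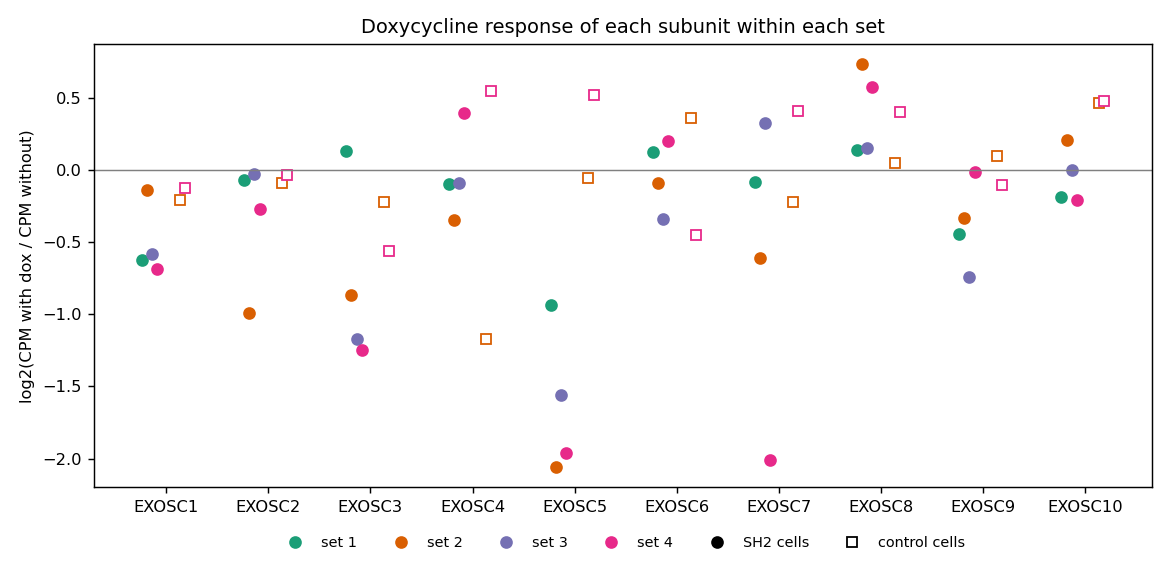
Log2 ratio of CPM with over without doxycycline (y axis) for each subunit (x axis) within each set, with filled circles for SH2 cells and open squares for control cells. The 4 SH2 points of EXOSC5 lie between -2.06 and -0.93, while its control points lie at -0.05 and 0.52; the isolated low point of EXOSC7 is SH2 set 4.

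Ratios within a library do not depend on how libraries are scaled. Those of SH2 cells use the same reads that chose EXOSC5 as low, so they are given as a description. EXOSC5 took 5.41%, 2.84%, 3.02% and 2.47% of the reads of all 10 subunits in treated SH2 cells of sets 1 to 4. In untreated SH2 cells it took 9.62%, 11.0%, 7.57% and 9.71%. It took 11.1% and 15.7% in treated and 11.7% and 12.1% in untreated control cells. Reads of the other 9 subunits summed to 1085, 1199, 1380 and 1820 in treated and 1137, 1519, 1574 and 1859 in untreated SH2 libraries of sets 1 to 4, fewer in the treated library of all 4 sets. Scaled for depth, the sums were 455, 455, 455 and 613 CPM treated and 466, 450, 510 and 561 CPM untreated, lower in the treated library of 2 of the 4 sets. By read count EXOSC5 ranked 7, 9, 9 and 7 among the 10 subunits in treated SH2 cells, 4, 3, 6 and 3 in untreated SH2 cells, and 3 or 4 in control cells.

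The balance of the EXOSC5 and EXOSC8 pair was lowest in treated SH2 cells, intermediate in untreated SH2 cells and highest in control cells, where doxycycline made little difference to it. In SH2 cells this balance, too, rests on the reads that chose EXOSC5 and is a description. There were 0.144 ± 0.0939 EXOSC5 reads per EXOSC8 read in treated SH2 cells and 0.545 ± 0.168 in untreated SH2 cells (SD, n = 4 each). Control cells had 1.69 ± 0.275 treated and 1.67 ± 0.0928 untreated (SD, n = 2 each). The highest treated SH2 library, at 0.284, lay just below the lowest untreated one, at 0.295. Between untreated SH2 and untreated control cells EXOSC8 differed, with a log2 fold change of 1.73 ± 0.33 (SE), and EXOSC5 did so by 0.03 ± 0.31. For EXOSC6 per EXOSC7 the ratio was 4.23 to 73.6 in treated SH2 cells, 2.94 to 15.9 in untreated SH2 cells and 1.09 to 2.85 in control cells, with the 73.6 in the library that stood apart. For EXOSC4 per EXOSC9 the ranges of the SH2 groups, 0.925 to 2.42 treated and 0.589 to 1.83 untreated, overlapped that of control cells, 0.829 to 2.81.

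**Figure D3:**
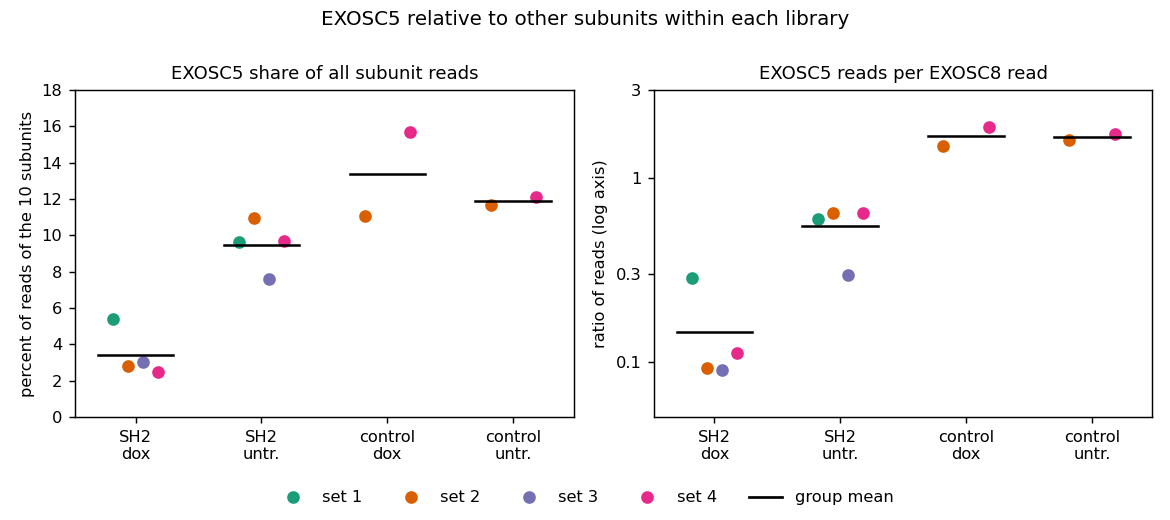
Left, EXOSC5 as a percent of the reads of the 10 subunits (linear y axis); right, EXOSC5 reads per EXOSC8 read (log y axis); points are libraries coloured by set and bars are group means. Treated SH2 libraries lie between 2.47% and 5.41%, below all others, and the pair ratio is below 0.65 in every SH2 library and above 1.4 in every control library.

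Doxycycline itself was tested on the subunits in control cells, whose libraries took no part in choosing EXOSC5. By edgeR's quasi-likelihood test with Benjamini-Hochberg adjustment over 11968 genes, 0 of the 10 subunits passed the threshold of 0.05, beside 0% of all genes. At an unadjusted p under 0.05 there were 0 subunits and 82 genes, and DESeq2 called 0 subunits. EXOSC5 had 60.3 ± 11.4 CPM treated and 50.9 ± 4.51 CPM untreated (SD, n = 2 each); its log2 fold change was 0.24 ± 0.36 (SE, edgeR adjusted p = 1). With 1 control library left out it ran from 0.045 (without the treated library of set 4) to 0.43 (without that of set 2). EXOSC10 had the highest log2 fold change, 0.47 ± 0.34, with 43.9 and 67.6 CPM treated against 31.8 and 48.4 CPM untreated in sets 2 and 4. It ran from 0.13, without the treated library of set 4, where EXOSC6 was highest at 0.55, to 0.82, without the untreated library of set 4. The lowest was that of EXOSC3, at -0.33 ± 0.56. EXOSC8 was the only subunit whose treated and untreated control libraries did not overlap; 12.3% of all genes were higher without overlap in that comparison of 2 against 2 libraries. EXOSC4 moved in opposite directions in sets 2 and 4, at -1.17 and 0.55. With 2 libraries a group, the standard errors of 0.34 to 0.63 show how little this comparison can resolve. They draw on the spread of all 12 libraries, without a term for the set. The 0 calls do not show that doxycycline left the subunits unchanged.

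The difference between the responses of SH2 and control cells was -1.84 ± 0.44 (SE, log2) for EXOSC5. It shares the SH2 libraries with the contrast that chose EXOSC5, so it is given without a test. The same difference ran from -0.51 (EXOSC10) to 0.28 (EXOSC4) for the other 9 subunits. Within the sets that hold both kinds of cell, EXOSC5 differed with doxycycline by -2.06 in SH2 and -0.05 in control cells of set 2, and by -1.96 in SH2 and 0.52 in control cells of set 4.

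SH2 and control cells differed in EXOSC7 and EXOSC8, in opposite directions and whether or not doxycycline was given. SH2 cells were set against control cells as the mean of the treated and untreated groups, a contrast that weighs treated and untreated SH2 cells alike. In it 3 of the 10 subunits passed an adjusted p of 0.05 in edgeR's test, beside 21.9% of all genes. EXOSC8 was higher, beside 10.5% of all genes, and EXOSC7 and EXOSC5 were lower, beside 11.4%. With 10 subunits these shares are close, so nothing is read from the count. For the subunits, treated and untreated cells were not tested apart. EXOSC8 had 117 ± 31.2 CPM in SH2 (SD, n = 8) and 33.1 ± 3.90 CPM in control libraries (n = 4), a log2 fold change of 1.81 ± 0.23 (SE, edgeR adjusted p = 7.78e-05), or 3.52-fold higher in SH2 cells. EXOSC7 had 23.6 ± 11.1 CPM in SH2 and 64.3 ± 8.87 CPM in control libraries, a log2 fold change of -1.46 ± 0.38 (edgeR adjusted p = 0.0134), or 2.74-fold lower. Neither overlapped between all SH2 and all control libraries, which was so for 7% of genes on the higher and 8.59% on the lower side. EXOSC7 lost its call without the untreated control library of set 2 (edgeR adjusted p = 0.0625).

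EXOSC9 was next, with 32.2 ± 9.73 CPM in SH2 and 19.1 ± 5.20 CPM in control libraries and a log2 fold change of 0.74 ± 0.26 that did not pass (edgeR adjusted p = 0.0609, from 0.0252 to 0.235 over the alternatives). With the set as a block it was 0.45. EXOSC6 had 0.44 ± 0.33 and EXOSC4 0.22 ± 0.27 (edgeR adjusted p = 0.374 and 0.621), and with 1 library left out they ran from 0.20 to 0.80 and from 0.0084 to 0.49. EXOSC1, EXOSC2, EXOSC3 and EXOSC10 had log2 fold changes between -0.12 and 0.12. EXOSC5 had -0.89 ± 0.22 (edgeR adjusted p = 0.00842). That mean takes in the treated SH2 libraries in which EXOSC5 was chosen as low, so its call supports nothing further. Set apart by treatment, EXOSC5 differed by -1.81 ± 0.30 between treated SH2 and treated control cells and by 0.03 ± 0.31 between the untreated groups. The 2 kinds of cell differ in more than the shRNA, and their origin and the construct cannot be told apart.

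Genes within 5 Mb of EXOSC7 and of EXOSC8 had medians on the same side of 0 as these subunits, but this did not hold for every subunit. EXOSC8 (chromosome 13, 36998816 to 37009613, plus strand) overlaps ALG5 at its annotated start and SUPT20H at its end, both on the opposite strand. ALG5, a glucosyltransferase of N-glycan assembly, had a log2 fold change of 2.51 ± 0.26, and SUPT20H, a subunit of the SAGA acetyltransferase complex, had 1.64 ± 0.24 (edgeR adjusted p = 1.26e-05 and 0.0002). Of the 29 other tested genes within 5 Mb of EXOSC8, 22 were positive, 15 were called higher and 2 lower, with a median of 1.38. Over the 218 other tested genes of the chromosome the median was 0.36, and over all genes 0.04. EXOSC7 (chromosome 3, 44975241 to 45036066, plus strand) overlaps the palmitoyltransferase gene ZDHHC3 at its start, which had -1.18 ± 0.20 (edgeR adjusted p = 0.000619). The RefSeq starts of EXOSC8 and EXOSC7 lie further downstream, past ALG5 and ZDHHC3. Of the 88 other tested genes within 5 Mb of EXOSC7, 12 were positive, 1 was called higher and 27 lower, with a median of -0.56, beside -0.26 over its chromosome.

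The neighbourhood of EXOSC5 did not show such a shift. Of 168 other tested genes within 5 Mb, 83 were positive in SH2 against control cells, with a median of -0.01. With doxycycline in SH2 cells the same 168 genes had a median of 0.00. Genes of the same stretch of chromosome share their region and are not independent, so these medians are descriptions. EXOSC9 (chromosome 4) had 14 of 15 tested neighbours positive, with a median of 0.66, beside 81.3% positive and a median of 0.52 over its chromosome. EXOSC10 (chromosome 1), itself at 0.06, had 18 of 69 tested neighbours positive and 18 called lower, with a median of -0.32, beside 0.08 over its chromosome. CCNA2, the S and G2 phase cyclin, overlaps the end of EXOSC9 on the opposite strand and had 0.66 ± 0.46 (edgeR adjusted p = 0.342). Within EXOSC3 lie the end of TRMT10B and the start of DCAF10, and the lectin gene CLEC3B overlaps EXOSC7 on the same strand with 0 reads. Antisense transcripts annotated over EXOSC4 (AC109322.1) and EXOSC10 (AL109811.1 and AL109811.2) had 42, 22 and 10 reads in all. The strand setting of the counting was not stated in the sources used here. Reads at such shared ends could have been counted as ambiguous and left out, so counts there may be too low. The 0 reads of CLEC3B thus do not show that it is silent.

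**Figure D4:**
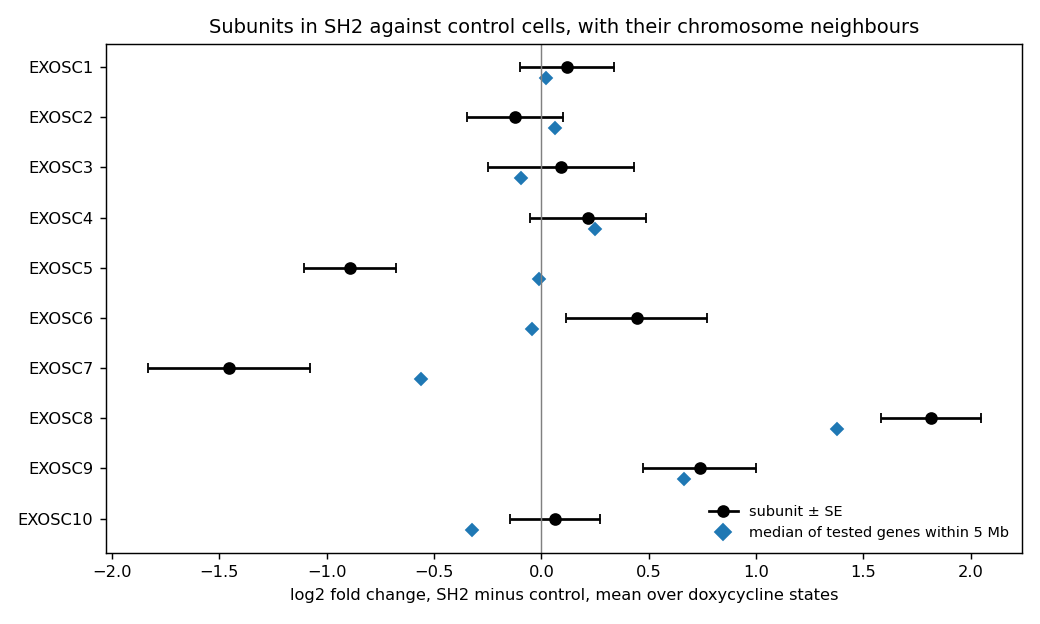
Log2 fold change of SH2 against control cells, averaged over doxycycline (x axis), for each subunit (black points, ± SE) and the median over tested genes within 5 Mb (blue diamonds). EXOSC8 at 1.81 and EXOSC7 at -1.46 have neighbour medians of 1.38 and -0.56 on the same side of 0, while EXOSC5 at -0.89 has a neighbour median of -0.01.

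Close to EXOSC5, 12 annotated genes start within 50 kb, of which 4 had enough reads to be tested. TMEM91, which converges on EXOSC5 from the opposite strand and ends before the end of EXOSC5, had a log2 fold change of 1.53 ± 0.38 (SE) with doxycycline in SH2 cells and -0.36 ± 0.53 in control cells, on 379 reads in all. TGFB1, the cytokine, had 0.40 ± 0.44 and 0.37 ± 0.60. B9D2, a protein of the ciliary transition zone, had 0.62 ± 0.35 and -0.43 ± 0.51, and DMAC2, an assembly factor of complex I, had -0.49 ± 0.26 and -0.11 ± 0.37. The difference of TMEM91 was thus close in size to that of EXOSC5 and opposite in direction, while those of the other 3 lay between -0.49 and 0.62. AC011462.1, a transcript annotated across the whole of EXOSC5 on the opposite strand, and BCKDHA, whose start overlaps that of EXOSC5 by 20 bases, had 0 reads. AC011462.1 spans nearly all of BCKDHA and the whole of TMEM91 on the same strand, so reads there could have been counted as ambiguous and left out. The level of TMEM91 may thus be too low, and the 0 reads do not show that AC011462.1 and BCKDHA are silent.

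Genes that work with the exosome were read from a list of 58 RNA decay genes, of which 53 were tested. With doxycycline in SH2 cells 0 of them passed in edgeR's test, beside 0.0167% of all genes (2 genes, or 6 with the set as a block). At an unadjusted p under 0.05 there were 2 decay genes, the deadenylase CNOT7 (-0.56 ± 0.21) and the decapping helicase DDX6 (0.58 ± 0.25; edgeR adjusted p = 0.983 for both), and DESeq2 called 0. Larger values with larger errors were those of TOB1 (-1.04 ± 0.52) and DCP1B (-0.88 ± 0.44; edgeR adjusted p = 0.983 for both). The nucleases and core cofactors DIS3, DIS3L, MPHOSPH6, C1D and SKIV2L2 (also MTREX), the helicase that feeds RNA to the nuclear exosome, had a median log2 fold change of -0.08, with 4 of 5 negative. SKIV2L2 had -0.41 ± 0.24, C1D, a partner of EXOSC10, had -0.29 ± 0.28, and DIS3 had 0.07 ± 0.35 (edgeR adjusted p of 0.983, 0.986 and 1). Adaptors of the nuclear exosome had a median of -0.02 over 8 genes, and the 3 tested genes of the cytoplasmic SKI route had -0.33, all 3 negative. Medians were 0.08 for 5′-to-3′ decay (15 genes), 0.09 for deadenylases (14 genes) and -0.06 for other 3′ nucleases (8 genes). None of the lists was tested as a set.

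Between SH2 and control cells 7 of these 53 genes passed, 5 higher and 2 lower in SH2 cells, beside 21.9% of all genes. The count was 4 without the treated SH2 library of set 3, the untreated SH2 library of set 2 or the treated control library of set 4. It was 3 without the untreated SH2 library of set 3 or the treated control library of set 2, and 2 without either untreated control library. DIS3, the exosome's processive nuclease, was higher, at 103 ± 41.4 CPM in SH2 (SD, n = 8) and 48.2 ± 10.6 CPM in control libraries (n = 4), a log2 fold change of 1.10 ± 0.32 (SE, edgeR adjusted p = 0.0251). DIS3 lies on chromosome 13, as EXOSC8 does, and 9 of its 13 tested neighbours within 5 Mb were positive, with a median of 0.28. Also higher were the deadenylase CNOT6L (1.21 ± 0.19, edgeR adjusted p = 0.000468), the mitochondrial oligoribonuclease REXO2 (0.99 ± 0.27, 0.0174), and from the decapping route LSM1 (52.3 ± 27.2 CPM in SH2 and 26.0 ± 3.92 CPM in control libraries, 0.0465) and the helicase DDX6 (0.65 ± 0.22, 0.0485). Lower were the decapping cofactor DCP1B (-1.46 ± 0.35, 0.00757) and TOB1 (-1.25 ± 0.41, 0.0429), which recruits deadenylases. The adaptor and SKI lists had no member past the threshold. Their smallest p-values were those of PAPD5 (-0.45 ± 0.27, edgeR adjusted p = 0.267) and RBM7 (0.44 ± 0.28, 0.282), and of HBS1L (-0.28 ± 0.28, 0.523) and WDR61 (-0.07 ± 0.23, 0.857).

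The genes most like EXOSC5 over the libraries are given as a description. Likeness was Pearson's r over the 12 libraries on log2 CPM, after subtraction of the mean of SH2 or of control libraries, among 8531 genes. The 5 highest were DDN (0.933), a postsynaptic protein gene, GNB1 (0.899), a G protein beta subunit, AP2B1 (0.894), an adaptor of clathrin coats, TSN (0.893), which encodes translin, and SRM (0.890), the spermidine synthase. SRM averaged 45.7 CPM in treated and 127 CPM in untreated SH2 cells, and DDN 8.91 and 27.2 CPM. EXOSC5 was chosen as low in treated SH2 cells and these genes for likeness to it, so their direction there follows from the choice. In control cells SRM averaged 204 CPM treated and 229 CPM untreated. Windows of 4 of the 5 were matched, and CACGTG was found in 2, TSN and SRM, beside 7.26% of all windows. The string and these genes were picked after values were seen, so nothing is read from that count.

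Among the subunits, EXOSC2 (0.660, rank 216) and EXOSC3 (0.645, rank 241) were most like EXOSC5, and EXOSC8 (-0.691, rank 8436) was least like it. The lowest r of any pair of subunits was that of EXOSC2 and EXOSC8, at -0.736. Of the 45 pairs of subunits 23 had a negative r. Among these were the 3 pairs from which the ring is built. Their r was -0.691 for EXOSC5 and EXOSC8, -0.689 for EXOSC6 and EXOSC7, and -0.451 for EXOSC4 and EXOSC9. The 12 points share library depth, the scaling and the set, and the treated SH2 library of set 4 holds both the highest EXOSC6 and the lowest EXOSC7 value, so these are descriptions. Every r of EXOSC5 also takes in the SH2 libraries that chose it as low. With 23 of 45 pairs negative, nothing is read from the sign of the 3 ring pairs.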

How the data were processed

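Per the labels' protocols, QuantSeq 3′ mRNA-Seq FWD libraries were made from total RNA. The submitters' processing notes name FastQC, STAR, HTSeq, DESeq2 and the build hg38 (GRCh38); versions, strand setting and annotation were not given in the sources used here. The authors deposited read counts for 64253 gene IDs and 5 summary lines per library. The summary lines were left out (non-unique alignments were 42.2% to 63.8% of reads, those without a feature 3.25% to 7.73% and ambiguous ones 1.11% to 1.62%). The deposited normalized signal, for 26231 genes, is the counts multiplied by 1 factor per library: 100% of values gave whole reads (tolerance 0.01). The count test on reads recovered in this way gave 2 calls with doxycycline in SH2 cells and 2624 between SH2 and control cells.

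In R 4.3.3, edgeR 4.0.16 (filterByExpr with a minimum count of 10, TMM, robust quasi-likelihood) fitted all 12 libraries with a term for each group, and p-values were adjusted over 11968 genes (threshold 0.05). SE is the log2 fold change over the square root of its F. Log2 CPM used a prior count of 3. Positions are from GENCODE v29 and promoters from RefSeq. The members, lists and tests were chosen with earlier results of these data known, and the neighbour windows of 5 Mb and the motifs after values were seen. Named are the subunits, IGF2BP1, overlapping genes and tested genes starting within 50 kb of EXOSC5, per decay list the genes past the threshold or else the 2 smallest p-values, and the 5 genes most like EXOSC5; SKIV2L2, C1D and CNOT7 stand outside this rule and were picked after their values were seen. LSM2 was not analysed here.

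Per the design text, each set had its own sort and doxycycline treatment. Same-set treated and untreated libraries deviated together from their group means (r of 0.188 to 0.663 in SH2 cells). The treated SH2 library of set 2 did so more with the untreated one of set 1 (0.272) than with its own (0.188). Sets were taken to pair the samples in the differences within sets and in the alternative with a block. The main fit held no term for the set, so its SEs and p-values leave the pairing out. The alternatives were size factors of DESeq2 in place of TMM, all genes with a count, a block for the set, DESeq2 1.42.0, a fit to the compared groups, limma 3.58.1 on log2 of the deposited signal plus 1, each library left out in turn, and both SH2 libraries of set 4 left out. Tests were also run on simulated counts, drawn independently with no set effect. That run cannot show how the tests behave where libraries of a set deviate together.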

Additional observations from a re-analysis of the deposited data

How the results depend on the processing

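With doxycycline in SH2 cells, EXOSC5 had log2 fold changes of -1.85 to -1.46 over the alternatives run. Its response differed from that of control cells by -2.09 to -1.64. Its log2 ratio to the other subunits differed between treated and untreated SH2 cells by -1.87 to -1.36 (-1.61 as reported). These values reuse the SH2 libraries that chose EXOSC5 as low, so its unchanged direction supports nothing further. With the set as a replicate block, 6 genes passed with doxycycline in SH2 cells, against 2 without it, and 3268 against 2624 passed between SH2 and control cells; no subunit's call changed in the 2 contrasts tested, though EXOSC3 turned to -0.17 between SH2 and control cells. The count with doxycycline in SH2 cells was 47 with no filter on low counts, 17 by DESeq2, 0 in a fit to the SH2 libraries and 0 to 3 with 1 library left out. With doxycycline in control cells 3 genes passed with no filter. Between SH2 and control cells 1727 genes passed without the untreated control library of set 2, where EXOSC7 lost its call (-1.34, edgeR adjusted p = 0.0625), and 3 subunits (2 to 4 with 1 library left out) passed as reported. EXOSC9 passed by DESeq2 (adjusted p = 0.0400), by limma-trend (adjusted p = 0.0442), and by edgeR without the treated (adjusted p = 0.0478), the untreated (0.0376) or both (0.0252) SH2 libraries of set 4. The decay genes called between SH2 and control cells numbered 2 to 9 with 1 library left out, against 7 as reported. With 1 library left out, subunits whose sign turned between SH2 and control cells were EXOSC3 (-0.16 to 0.37) and EXOSC10 (-0.079 to 0.23). With doxycycline in control cells they were EXOSC1 (-0.38 to 0.039), EXOSC2 (-0.14 to 0.016), EXOSC3 (-0.89 to 0.076), EXOSC4 (-0.84 to 0.14), EXOSC6 (-0.65 to 0.55), EXOSC7 (-0.12 to 0.33) and EXOSC9 (-0.42 to 0.37), and by limma-trend EXOSC6 (-0.051) and EXOSC9 (-0.011). EXOSC6 with doxycycline in SH2 cells was -0.39 without the treated and 0.33 without the untreated library of set 4. The cause of these changes was not tested. A control group with 1 library left is assumed to vary like the other groups. Averaging over doxycycline compares all groups, so it has no fit to the compared groups alone. Subunits with few reads, EXOSC3 above all, and the 2 libraries per control group limit what can be resolved.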
